A study of Mus musculus with 21 samples.

Results

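The cytosolic ribosome is built from ribosomal RNA and about 1 copy of most ribosomal proteins, which are made in the cytosol and assembled with the RNA in the nucleolus. The genes for these proteins were taken by symbol: Rpl or Rps followed by a number and, for some, a short ending, together with the stalk genes Rplp0, Rplp1 and Rplp2 and the laminin receptor gene Rpsa. The rule found 85 genes of the 22040 listed in any of the 4 deposited tables, 53 named for the large subunit and 32 for the small subunit. Of these, 76 are the core genes of the ribosome, 7 are paralogs or variants of a core gene, and 2 (Rpl32l and Rpl6l) are processed pseudogenes in GENCODE. The rule missed 4 genes of the same ribosome whose symbols have another form, among them Rps3a1 and Fau, which code for ribosomal proteins, and Rack1, a scaffold protein of the small subunit. These 3 were described beside the members.

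The data came from the sequenced RNA of 21 cultures of cortical neurons taken from newborn mouse pups. Cultures were wild type (WT) or carried hTau P301S (Tau), a cDNA of a mutant human tau that aggregates, driven by the prion promoter, and were treated for 24 h with AdipoRon at 10 μM, a small molecule agonist of the adiponectin receptors, or with its vehicle DMSO. There were 5 Tau cultures with DMSO, 5 Tau cultures with AdipoRon, 5 WT cultures with DMSO and 6 WT cultures with AdipoRon. By the paper's methods, transgenic neurons received pre-formed fibrils, at 3 μg/mL on day 7 with 18 further days in culture. Its results, however, date the RNA of both genotypes from the seeding, so whether WT cultures also received fibrils is unclear. If Tau cultures alone did, genotype and fibrils cannot be told apart. All cultures had been treated with AraC against dividing glia. One animal gave samples to each treatment according to the study's reporting summary, so cultures of different groups may share an animal.

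Each table gave, for each gene, the authors' mean level over the cultures of a pair of groups in log2 CPM, that is the log2 of counts scaled to the size of the library. The pairs were Tau and WT with DMSO, Tau with AdipoRon and with DMSO, WT with AdipoRon and with DMSO, and Tau and WT with AdipoRon. The authors' own fold changes and p-values were not used here. Values per culture were not used here either, so a level has no error between cultures, the depth of each culture is unknown, and no difference below was tested. The range of a value over the 4 tables is given instead. It is not an error, since the tables share groups and differ in treatment and genotype.

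Ribosomal protein mRNAs are known as abundant and stable, and their translation rises and falls together through the oligopyrimidine stretch at their 5′ end, which is read by mTOR signalling through LARP1. In neurons ribosomes also sit in dendrites and axons, where local translation serves synapses. Synthesis of ribosomes is one of the larger costs of a cell, and the members of each subunit are needed in equal number whatever the level of each mRNA.

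The cultures held the markers of neurons at a summed 11.81 log2 CPM or more in every table, with 7 of 7 listed. Astrocyte markers summed to 11.71 to 11.85, with Gfap at 10.87, although AraC had been given. Oligodendrocyte markers summed to 9.09 to 9.65, microglial markers to 5.62 to 6.62, and the fibroblast and vascular markers to 5.57 to 5.74 with Cldn5 not listed. In such bulk samples fewer cells of a type and less RNA per cell cannot be told apart.

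The ribosomal protein genes covered a wide span of levels (plot of the level of each gene by subunit). Their median was 4.92 log2 CPM with an SD of 1.90 over genes, against a median of 4.00 for all 19399 genes listed in all 4 tables. The 14834 other protein-coding genes among these had a median of 4.76. The median of the members was 4.80 in the table of DMSO cultures, 4.80 in the table of Tau cultures, 5.06 in that of WT cultures and 5.03 in that of AdipoRon cultures. Summed after taking the levels out of the log, the members made up 0.479%, 0.477%, 0.538% and 0.539% of the total of these tables, in the same order. The 78 genes for the mitochondrial ribosome, which is built from other proteins, had nearly the same median at 4.90 and an SD of 0.74, from 1.94 for Mrpl23 and 2.25 for Mrps36 to 5.87 for Mrpl12 and 5.93 for Mrpl10.

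**Figure D1:**
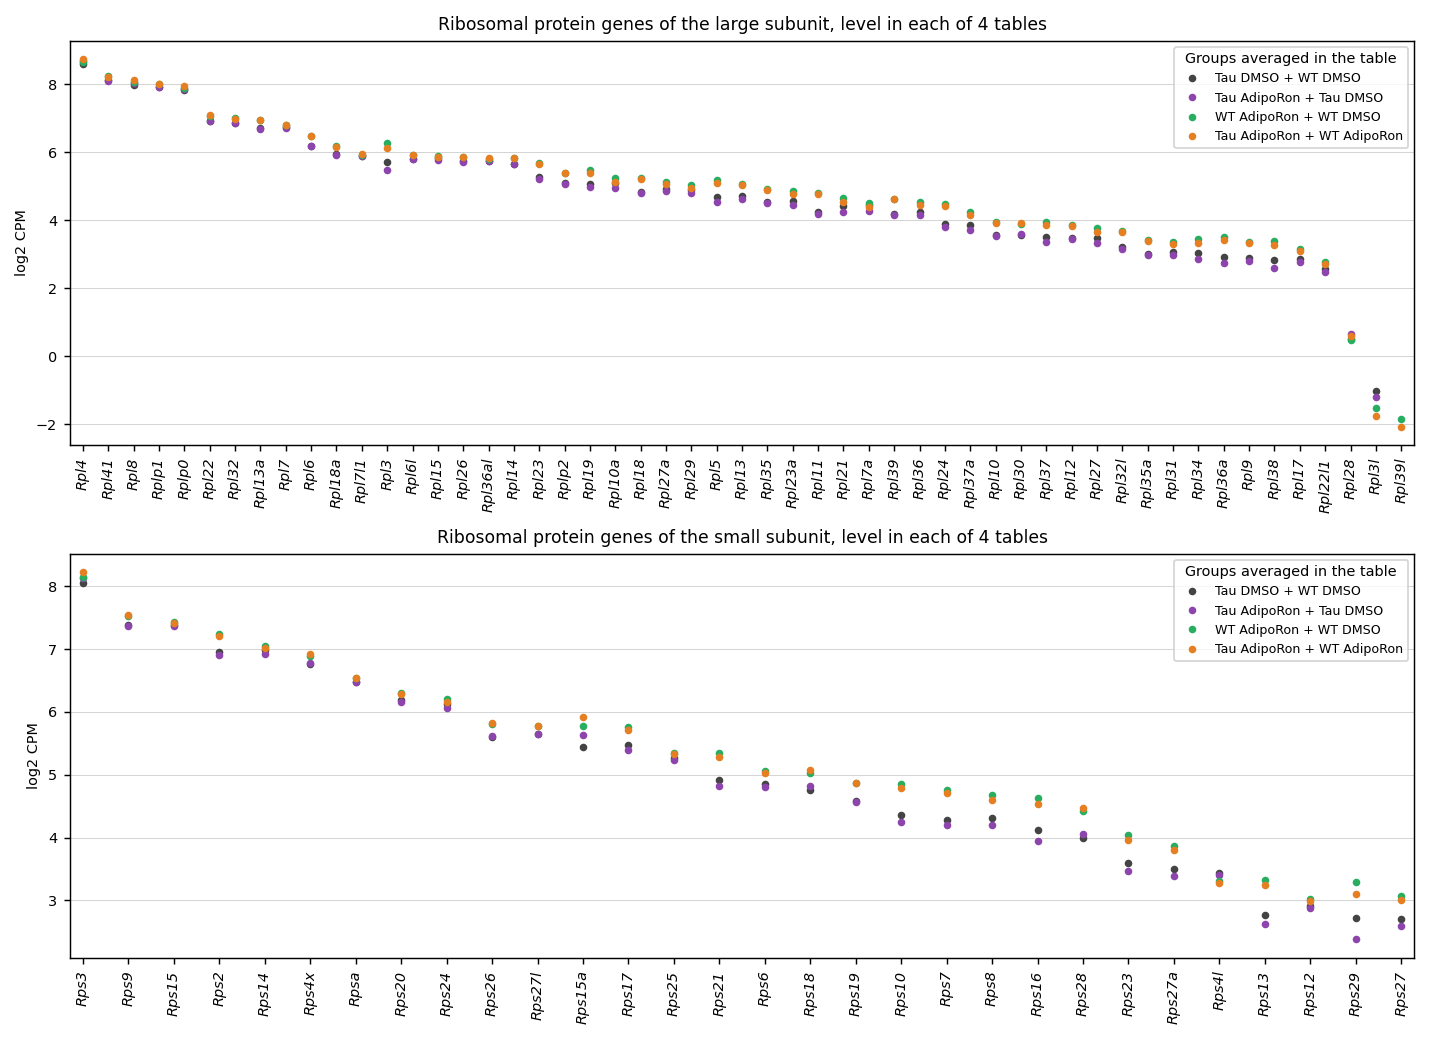
Levels of members in log2 CPM (vertical axis), with genes of the large subunit above and of the small subunit below, ordered by mean level. Each point is the authors' mean over the cultures of the pair of groups named in the legend. Levels fall from 8.67 for Rpl4 to -1.96 for Rpl39l, and the green and orange points, the tables that hold WT cultures with AdipoRon, lie above the other points for most genes, as they do for 78 of the 84 members listed in all tables.

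Rpl4, a large subunit protein that lines the exit tunnel, had the highest level in CPM of all members, at 8.60 log2 CPM in the table of DMSO cultures, 8.68 in Tau cultures, 8.67 in WT cultures and 8.74 in AdipoRon cultures. Rpl41 followed at 8.12, 8.09, 8.24 and 8.21 in these tables. The large subunit genes next in order were Rpl8 with a mean of 8.06, Rplp1 with 7.98 and Rplp0 with 7.89. In the small subunit the order began with Rps3, a protein at the mRNA entry channel that also has roles in DNA repair, at 8.05, 8.13, 8.15 and 8.23. Rps9 (mean 7.45), Rps15 (7.40) and Rps2 (7.08) were also among the 5 highest. The values of Rps9 and Rps15 differed by less than their range over the tables.

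Levels of different genes are comparable only per length, and each was therefore also divided by the length of the coding sequence in kilobases. Rpl41 then stood first at 11.85 log2 CPM per kilobase of coding sequence, followed by Rplp1 at 9.51, Rps3 at 8.59, Rps15 at 8.59 and Rpl8 at 8.42. The first place of Rpl41 comes with a coding sequence of 78 bases in a transcript of 582 bases. Per kilobase of transcript it stood at 8.95 and Rplp1 at 8.85. Rpl41 codes for the smallest ribosomal protein, of 25 codons, and its coding sequence (gene at chr10:128383979-128387628, GRCm39, minus strand) is printed whole to show how short it is.
Rpl41: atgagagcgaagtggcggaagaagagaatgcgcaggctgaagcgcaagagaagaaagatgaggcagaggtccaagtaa

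The lowest core gene was Rpl28, at 0.52, 0.66, 0.48 and 0.60 log2 CPM in the tables of DMSO, Tau, WT and AdipoRon cultures. Per kilobase of coding sequence it stood at 1.84, the lowest of the core genes. Rpl17, Rpl9 and Rps13 were also low, at 3.83, 3.88 and 4.13 (these 3 named after their values were seen). From the highest core gene to the lowest the span was 276-fold in CPM and 1031-fold per kilobase of coding sequence, although each of these proteins is present about once in a ribosome. In the small subunit Rps27 at 2.85 and Rps29 at 2.88 were among the 3 lowest genes in log2 CPM.

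Small subunit genes had a median of 5.01 log2 CPM and large subunit genes of 4.87, a difference of -0.14 for large minus small, against SDs within the subunits that exceed it many times over. Among the core genes the medians were 5.01 and 4.87 as well. Per kilobase of coding sequence the distance was wider, with 6.58 for the small and 5.84 for the large subunit. The small subunit held the higher median in each of the 4 tables, by 0.18 to 0.23.

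The stalk is the lateral arm of the large subunit that recruits the translation factors, and consists of Rplp0 with dimers of Rplp1 and Rplp2. Rplp0 was at 7.83, 7.86, 7.91 and 7.95 log2 CPM in the tables of DMSO, Tau, WT and AdipoRon cultures, and Rplp1 at 7.93, 7.92, 8.02 and 8.03. Rplp2 was lower, at 5.09, 5.08, 5.41 and 5.41. Per kilobase of coding sequence the values were 9.51 for Rplp1, 7.95 for Rplp0 and 6.77 for Rplp2, so the acidic proteins of the dimers lay further apart than Rplp1 and Rplp0.

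Of the 8 paralogs or variants looked for, 7 were listed, Rpl10l, a testis form of Rpl10, being the one not listed. Rps27l, a paralog of Rps27 known as a p53 target, was at 5.65, 5.64, 5.78 and 5.78 log2 CPM in the tables of DMSO, Tau, WT and AdipoRon cultures. Rps27 itself was at 2.70, 2.60, 3.08 and 3.01, so the paralog stood 7.29-fold above its parent gene. Rpl36al stood 6.20-fold above Rpl36a in the same way, with means of 5.78 and 3.15. Both pairs have coding sequences of equal length, and the fold is the same per length.

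The coding sequences of these pairs show where paralog and parent differ. The parent genes also have other copies, since 100% of the 50-base windows of Rps27 and of Rpl36a were found elsewhere in the genome, against 47.6% for Rps27l and 81.8% for Rpl36al. The part of reads shared with these copies in the folds was not tested. Rps27 (chr3:90119819-90120977, minus strand) and Rps27l (chr9:66853340-66856808, plus strand; GRCm39) differ at 61 of 255 bases, an identity of 76.1%, and share no run of over 11 bases. The first 120 bases are given, with the differing bases in capitals.
Rps27: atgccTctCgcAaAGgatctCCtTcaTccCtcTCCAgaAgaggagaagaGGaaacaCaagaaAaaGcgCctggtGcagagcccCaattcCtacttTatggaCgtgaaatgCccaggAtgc
Rps27l: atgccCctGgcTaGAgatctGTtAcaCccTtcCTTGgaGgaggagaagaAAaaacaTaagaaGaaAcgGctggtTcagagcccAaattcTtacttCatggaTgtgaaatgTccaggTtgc

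Rpl36a (chrX:133486372-133488901, plus strand) and Rpl36al (chr12:69228230-69231234, minus strand) differ at 39 of 321 bases, an identity of 87.9%, with a longest shared run of 24 bases.
Rpl36a: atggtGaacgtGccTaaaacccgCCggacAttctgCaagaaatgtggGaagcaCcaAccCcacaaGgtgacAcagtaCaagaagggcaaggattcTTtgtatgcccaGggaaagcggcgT
Rpl36al: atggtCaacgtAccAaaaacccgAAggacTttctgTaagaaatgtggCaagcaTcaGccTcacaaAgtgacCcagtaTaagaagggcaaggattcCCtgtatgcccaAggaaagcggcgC

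The other paralogs lay under their parent genes. Rpl3l, the form of skeletal and heart muscle, was at -1.02, -1.19, -1.51 and -1.75 log2 CPM, and Rpl3 stood 156-fold above it per kilobase of coding sequence. Rpl39l, a form of male germ cells, was listed only in the tables of WT cultures (-1.85) and AdipoRon cultures (-2.06), and Rpl39, by its mean over all tables, stood 82.0-fold above it. Rpl22 stood 19.5-fold above Rpl22l1, Rps4x 11.1-fold above Rps4l, and Rpl7 1.64-fold above Rpl7l1. Rpl7l1, which despite its symbol is known from ribosome assembly, was thus the one of these 5 near its parent gene, with a mean of 5.92 log2 CPM against 6.77 for Rpl7.

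Rpl39 (chrX:36345092-36349130, minus strand) and Rpl39l (chr16:9949671-9992780, plus strand) are printed because they have the longest shared run of the 3 pairs, 38 bases, with 23 of 156 bases differing and an identity of 85.3%.
Rpl39: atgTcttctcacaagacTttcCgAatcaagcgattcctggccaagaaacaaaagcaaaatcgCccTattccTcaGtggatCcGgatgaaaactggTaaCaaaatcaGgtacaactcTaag
Rpl39l: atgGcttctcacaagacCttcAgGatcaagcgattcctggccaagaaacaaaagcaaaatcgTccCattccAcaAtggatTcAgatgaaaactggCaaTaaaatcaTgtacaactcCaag

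Ribosomal protein genes have many processed copies in mammalian genomes, and reads that match several places are counted differently by different tools. Windows of 50 bases along each coding sequence (of the transcript for the 2 pseudogenes) were searched for elsewhere in GRCm39. At least 1 window was found elsewhere for 82 of 85 members, and the median share of such windows was 89.7%. Rpl3l and Rpl39l were among those with none. Rps3 (7.30%), Rpl8 (8.97%) and Rpl4 (19.8%) had few, and they were among the 7 highest members in CPM (plot of level per length against copies). Among the 62 members with at least 75% of their windows elsewhere the median level was 4.61 log2 CPM and 5.68 per kilobase of coding sequence. Over the 76 core genes Spearman's rho between the share of windows and the level per kilobase was -0.64 and Pearson's r was -0.57. These points share the same libraries, and the coding length enters both values. Rpl41, with all of its windows found elsewhere, lay away from that order. A level of a member with many copies is therefore uncertain by what the authors' counting did with shared reads.

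**Figure D2:**
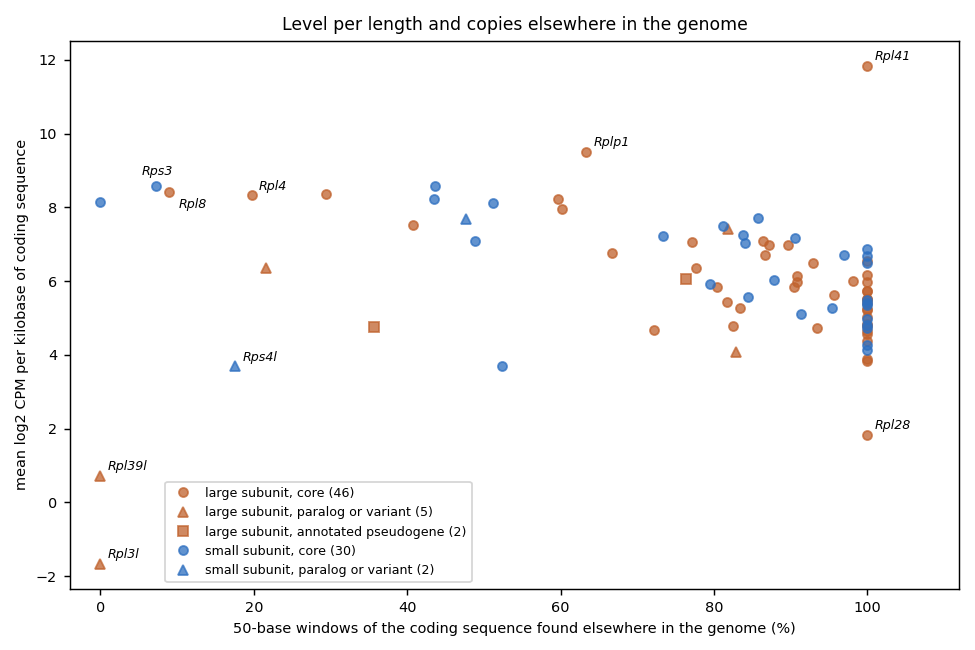
Mean log2 CPM per kilobase of coding sequence (vertical axis; of transcript for the 2 pseudogenes) against the percentage of 50-base windows found elsewhere in the genome (horizontal axis) for the 85 members, by subunit and class. Rps3, Rpl8 and Rpl4 lie at the upper left, Rpl3l and Rpl39l at the lower left, and most core genes lie at the right between 4 and 8, with Rpl41 above and Rpl28 below them.

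The question of what AdipoRon and genotype did was approached through the levels alone. The table of AdipoRon cultures and the table of DMSO cultures each hold both genotypes and share no culture, so the difference of their levels compares AdipoRon with DMSO with the genotypes pooled. In the same way, the table of WT cultures minus that of Tau cultures compares the genotypes with the treatments pooled. The tables were normalized separately, and each difference was centred on its median over the 19399 genes in all tables (0.03 for treatment and 0.00 for genotype before centring). The higher table of each of these comparisons holds the WT cultures with AdipoRon, and the lower one the Tau cultures with DMSO. These levels do not give the value of a single group, so the part of treatment, of genotype and of 1 such group cannot be told apart in them, and the response to AdipoRon within each genotype was not analysed here.

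With the genotypes pooled, ribosomal protein genes were higher in the table of AdipoRon than in that of DMSO cultures, by a median of 0.20 log2 units over the 84 members in all tables, a 1.15-fold difference. Of these 84, 79 lay above 0 and 58 above 0.1, where 50.0% and 31.0% of all genes did. Below -0.1 lay 3, where 31.4% of all genes did. Among all genes over 4 log2 CPM, 28.1% lay above 0.1. The large and small subunits had medians of 0.19 and 0.20.

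Rpl24, a large subunit protein at the bridge between the subunits, was 0.51 higher with AdipoRon, at 4.43 log2 CPM against 3.89 with DMSO. Rpl11, which binds Mdm2 when ribosome assembly is disturbed, was 0.49 higher, at 4.77 against 4.25 (named after its values were seen). Rps15a was 0.46 higher, at 5.92 against 5.43, and Rpl36a and Rps28 were each 0.46 higher. Below 0 were, among others, Rpl3l at -0.76, Rps4l at -0.19 and, named after their values were seen, Rpl7a at -0.09 and Rpl15 at -0.003. Rpl3l and Rps4l are paralogs, and Rpl3l had the lowest level of the 84 genes. The share of windows found elsewhere was 100% for Rpl24, Rpl11, Rpl36a and Rps28 and 84.1% for Rps15a. It was 0% for Rpl3l and 17.6% for Rps4l, but 93.4% for Rpl7a and 100% for Rpl15.

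With the treatments pooled, levels were higher in the table of WT than in that of Tau cultures, by a median of 0.30 log2 units over the 84 members, a 1.23-fold difference. Above 0 were 80 of 84 members and above 0.1 were 69, against 50.0% and 22.4% of all genes, and 18.1% of genes over 4 log2 CPM. The medians were 0.35 for the large and 0.20 for the small subunit, and 0.39 and 0.24 among the core genes.

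Rps29, a zinc-binding protein of the small subunit mutated in some families with Diamond-Blackfan anaemia, differed most, at 3.30 log2 CPM in WT and 2.38 in Tau cultures (0.92). Rpl3, which lies near the peptidyl transferase centre, was at 6.28 in WT and 5.48 in Tau cultures (0.80). Rpl38, known for its part in the translation of Hox mRNAs, was at 3.39 and 2.61 (0.78), and Rpl36a at 3.51 and 2.75 (0.75). Rpl4 (-0.01), Rps3 (0.01), Rpl8 (0.02) and Rplp0 (0.04), among the highest members, had nearly the same level in both genotypes. Below 0 were Rpl3l at -0.32, Rpl28 at -0.19, Rps4l at -0.11 and Rpl4. The share of windows found elsewhere was 100% for Rps29, Rpl38 and Rpl36a and 95.7% for Rpl3. It was 19.8% for Rpl4, 7.30% for Rps3, 8.97% for Rpl8 and 60.2% for Rplp0, but 100% for Rpl28. The part of shared reads in these values was not tested.

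**Figure D3:**
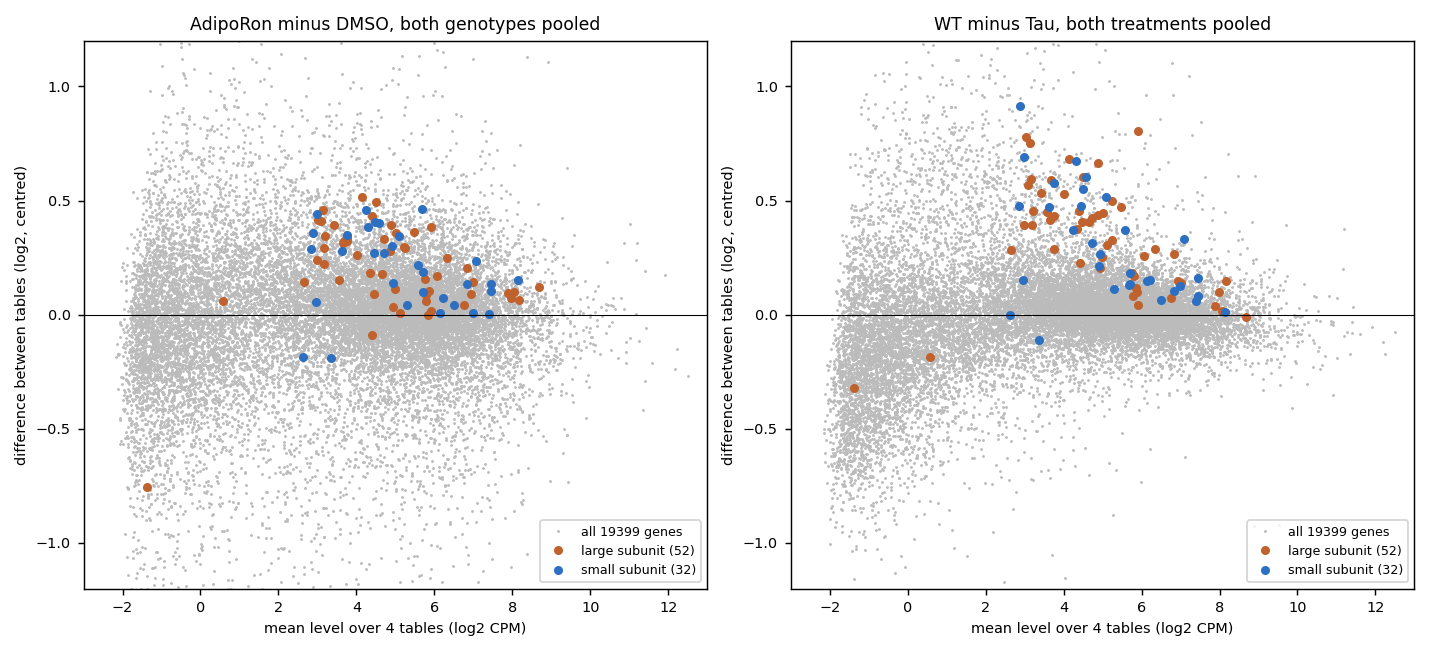
Difference between tables in centred log2 units (vertical axis; values beyond 1.2 in either direction are outside the panels) against the mean level in log2 CPM (horizontal axis), for AdipoRon minus DMSO (left) and WT minus Tau (right). Grey points are the 19399 genes in all tables, and coloured points the 52 large and 32 small subunit genes among them. Members between 2 and 5 log2 CPM lie higher above 0 than members over 7, most clearly on the right.

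Both differences were larger for members of low than of high level. For AdipoRon minus DMSO the median was 0.31 in the 42 members at or under the median level and 0.11 in the 42 above it, and for WT minus Tau 0.45 and 0.15. The 11 members over 7 log2 CPM had medians of 0.10 and 0.08. Over the 76 core genes Spearman's rho with the mean level was -0.45 for AdipoRon minus DMSO and -0.61 for WT minus Tau, values that share the level itself with the differences and are given as a description. Among all genes from 2 to 4 log2 CPM the medians were 0.04 and 0.04.

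The share of windows with copies moved with both differences among the members. Members with at least 75% of their windows elsewhere had medians of 0.26 for AdipoRon minus DMSO and 0.39 for WT minus Tau, and the 7 members with under 25% had 0.10 and 0.01. Among other protein-coding genes, the 315 with at least 75% of their windows elsewhere had medians of 0.02 and 0.06. The 12665 with no such window had 0.01 and 0.01. For WT minus Tau, 132 of the 315 (41.9%) lay above 0.1, against 22.6% of the 12665. For AdipoRon minus DMSO, 85 of the 315 did, against 4179 of the 12665. Among the members, coding length moved in the same way as the share of windows. Medians were 0.26 and 0.38 in the 58 members of up to 600 coding bases and 0.13 and 0.15 in the 24 longer ones. The 1775 other genes of up to 600 bases had 0.02 and 0.04. The 143 other genes with both features had medians of 0.01 and 0.07. Of these 143, 26.6% lay above 0.1 for AdipoRon minus DMSO and 46.2% for WT minus Tau.

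Markers of several cell types moved with genotype or treatment. Without centring, summed microglial markers were 1.00 log2 units higher in the WT than in the Tau table, with 5 of 5 markers higher, and oligodendrocyte markers 0.56 higher, also with 5 of 5. In the AdipoRon table these sums were at -0.21 and -0.12 relative to the DMSO table, with 2 of 5 markers higher in each. Summed neuronal markers were 0.14 lower in the WT table, and 0.20 lower in the AdipoRon than in the DMSO table, with 1 of 7 markers higher in each case. Astrocyte markers were 0.01 and 0.13 higher in the WT and AdipoRon tables, with 3 of 5 markers higher in each. Fibroblast and vascular markers were at -0.17 and 0.08, with 2 of the 4 listed markers higher in each. The part of these cells in the levels of ribosomal protein genes was not tested.

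Exchanging 1 group between tables gave a further view. Between the table of DMSO cultures and that of WT cultures, WT cultures with AdipoRon take the place of Tau cultures with DMSO, and the members rose by a median of 0.26 log2 units. Of 84 members 80 lay above 0 and 61 above 0.1, where 50.0% and 24.7% of all genes did. Between the table of DMSO cultures and that of Tau cultures, Tau cultures with AdipoRon take the place of WT cultures with DMSO, and the median was -0.06, with 70 of 84 members below 0 and 24 below -0.1 against 50.0% and 20.9% of all genes. The 24 members are 28.6%. Among the 315 other protein-coding genes with at least 75% of their windows elsewhere, the median was -0.05. Of these 315, 67.6% lay below 0 and 28.6% below -0.1. In the first exchange these 315 genes had a median of 0.03, with 60.3% above 0 and 30.2% above 0.1. For the members, each difference can also be taken by another pair of tables, which gave 0.27 and -0.04. Since a table is a mean over 2 groups, the groups exchanged differ by more than the tables do. Of the 84 members, 78 were higher in both tables that hold WT cultures with AdipoRon than in both that do not, as were 33.4% of all genes, and 2 members, Rps4l and Rpl3l, were lower.

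The largest of these values belonged to genes named above. When WT cultures with AdipoRon replaced Tau cultures with DMSO, Rpl24 was 0.57 higher, Rpl36a and Rps29 0.56, and Rpl38 and Rpl3 0.54, while Rpl3l (-0.51), Rps4l (-0.15), Rpl28 (-0.06) and Rpl7l1 (0.02) were among those at the other end. When Tau cultures with AdipoRon replaced WT cultures with DMSO, Rps29 was at -0.35, Rpl3 at -0.26, Rpl38 at -0.22, and Rpl3l and Rpl36a at -0.18. Rps15a, a small subunit protein, was the highest at 0.20, with 5.43 log2 CPM in the DMSO table and 5.64 in the Tau table. Rpl28 (0.14), Rps3 (0.08), Rpl4 (0.07) and Rps28 (0.06) followed it.

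Among genes of the same ribosome outside the symbol rule, Fau and Rps3a1 differed by more than the member medians and Rack1 by less. Fau was at 4.42 log2 CPM in DMSO and 4.83 in AdipoRon cultures (0.38), and at 4.32 in Tau and 4.90 in WT cultures (0.58). Rps3a1 differed by 0.39 and 0.60. Rack1 differed by 0.06 and 0.05, with a mean of 7.98 log2 CPM and 1.66% of its windows elsewhere.

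Other genes of protein synthesis had medians nearer to 0 (plot of the differences by gene list). Of all genes, 31.0% lay above 0.1 for AdipoRon minus DMSO and 22.4% for WT minus Tau. Below -0.1 lay 31.4% and 24.7% of all genes. The 17 translation factors and other genes known for an oligopyrimidine start had medians of 0.07 for AdipoRon minus DMSO and 0.03 for WT minus Tau. Their median level was 6.69 log2 CPM and their median share of windows elsewhere 32.7%, against 4.92 and 89.7% for the members. In each difference 7 of these 17 (41.2%) lay above 0.1, and 1 and 0 lay below -0.1. In this list the elongation factors Eef1a1, the highest at 10.91 log2 CPM, and Eef2, at 10.58, differed by -0.12 and 0.07 for treatment and by -0.05 and -0.03 for genotype. The lowest were Naca at 4.99 with 0.32 and 0.44, and Npm1 at 5.68 with 0.19 and 0.23. The 17 genes of ribosome assembly had medians of -0.01 and 0.01, with 4 and 1 above 0.1 (23.5% and 5.88%). Below -0.1 lay 6 and 0 of them, the 6 being 35.3%. The median share of windows elsewhere in the assembly list was 0%. Nop56, a core protein of box C/D small nucleolar ribonucleoproteins, was at -0.25 for AdipoRon minus DMSO and Bop1, which is needed for the large subunit, at -0.23 (both named after their values were seen). Their highest genes were Ncl at 8.46 with 0.04 and 0.02, and Ubtf, the activator of ribosomal RNA transcription, at 7.16, and their lowest Fbl at 3.47 with 0.31 and 0.25, and Tsr1 at 4.38. The 78 mitochondrial ribosomal protein genes had nearly the median level of the members, but a median share of windows elsewhere of 0% against 89.7%. These 78 genes had medians of -0.01 and 0.06. Of these, 16 and 17 lay above 0.1 (20.5% and 21.8%) and 14 and 0 below -0.1, the 14 being 17.9%. Mrpl23, the lowest of them, was at 2.10 log2 CPM in AdipoRon and 1.79 in DMSO cultures, and Mrpl10, the highest, at 5.98 and 5.88. The difference between these lists and the members was not tested, nor was the part of level and copies in it.

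**Figure D4:**
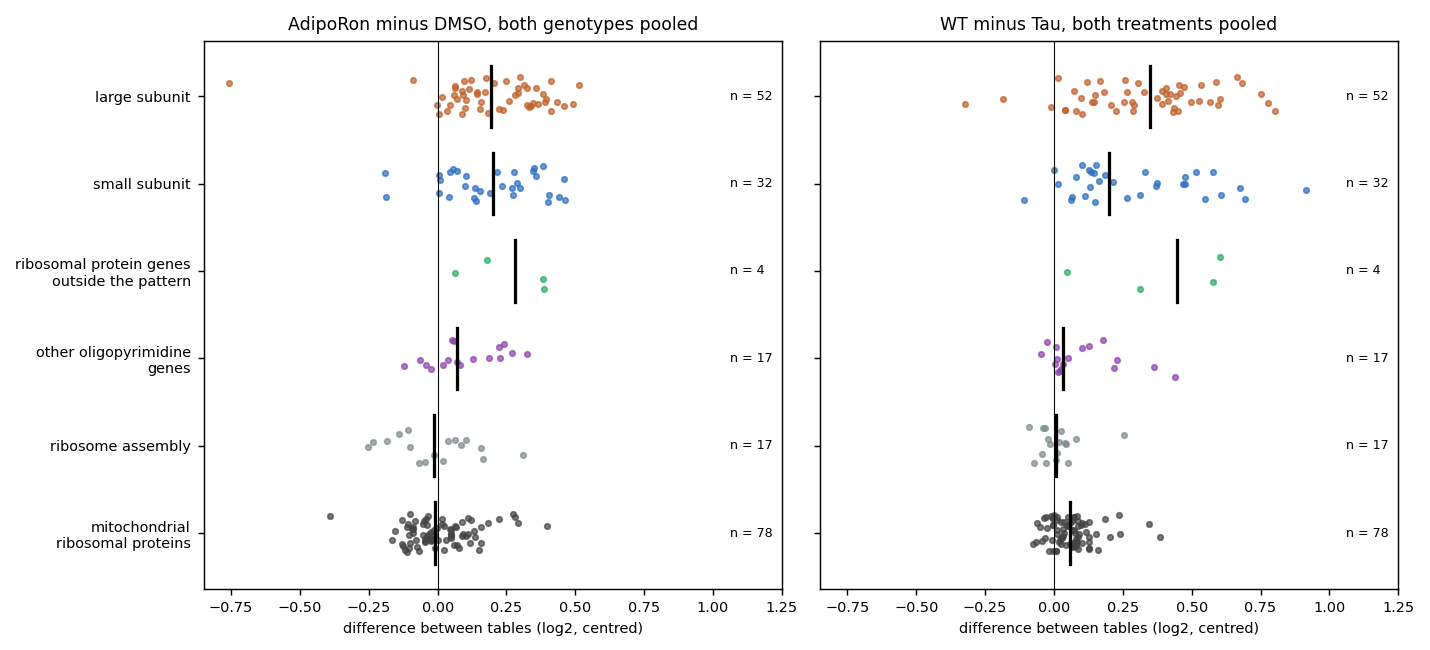
Difference between tables in centred log2 units (horizontal axis) for the genes of 6 lists (vertical axis, n genes in all 4 tables), for AdipoRon minus DMSO (left) and WT minus Tau (right). Each point is a gene, spread vertically for sight, and bars are medians, at 0.19 and 0.35 for the large subunit and at -0.01 and 0.06 for mitochondrial ribosomal proteins.

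The start sites of the members share features that the symbol rule did not use. RefSeq promoters (GRCm38.p6, from 250 bases before to 50 after the start of the gene) matched 63 of the members. A run of at least 8 C or T bases on the gene's strand within 25 bases of the start was present in 31 of 63 (49.2%), against 19.4% of 27025 promoters, 19.2% of those of genes in all tables and 23.2% of mitochondrial ribosomal protein genes. The letters CCGGAAG, the core of an ETS factor site, were found on either strand in 24 of 63 (38.1%), against 9.12% of all promoters, 14.6% of those of genes in all tables and 36.2% of mitochondrial ribosomal protein genes. GGGCGG, the letters of a GC box, stood on either strand in 58.7%, 35.9%, 56.6% and 49.3% of these sets, and TATAAA on the gene's strand in 11.1%, 8.88%, 5.13% and 4.35%.

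Start sites of members that the results turn on are given below, from 15 bases before to 15 after the annotated start on the gene's strand, with the longest run of C and T in capitals. They lie at chr7:4792950-4792979 (plus strand), chr9:64173372-64173401 (plus), chr10:128549154-128549183 (minus) and chr7:118116133-118116162 (minus) of GRCm38.p6. Rps6, the substrate of S6 kinase (chr4:86857353-86857382, minus), Rpl35 (chr2:39005117-39005146, minus) and Rpl27a (chr7:109519180-109519209, plus) are shown as cases with runs of 10, 18 and 19 bases, chosen after they were seen.
Rpl28: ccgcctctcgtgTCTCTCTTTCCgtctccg
Rpl4: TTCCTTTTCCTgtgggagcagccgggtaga
Rpl41: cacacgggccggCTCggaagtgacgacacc
Rps15a: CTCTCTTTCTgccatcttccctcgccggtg
Rps6: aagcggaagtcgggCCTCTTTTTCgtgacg
Rpl35: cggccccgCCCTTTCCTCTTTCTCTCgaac
Rpl27a: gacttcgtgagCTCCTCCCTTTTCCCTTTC

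Rpl28, the lowest core gene, and Rpl4, the highest member in CPM, both have a run of 11 bases here, and the window of Rpl41 holds none over 3 bases. The run of Rpl28 spans the annotated start, and the runs of Rpl4 and Rps15a end before it. Which start site the cultures used was not tested. Members with a run of at least 8 bases had a median level of 4.90 log2 CPM and those without one of 4.91. When WT cultures with AdipoRon replaced Tau cultures with DMSO their medians were 0.24 and 0.32. Those with and without CCGGAAG had medians of 5.09 and 4.41 log2 CPM and of 0.27 and 0.28 for that difference.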

How the data were processed

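Polyadenylated RNA of 21 cultures was sequenced, and the authors aligned reads to mm10 with STAR, quantified them with RSEM and fitted a generalized linear model in edgeR (results in the paper name GRCm39, and the tables are named after Rsubread). The 4 deposited tables hold, per gene, the authors' mean level as log2 CPM over the cultures of a pair of groups, and their own log2 fold change, likelihood ratio, p-value, false discovery rate and call, which were not used here. The groups of each table were taken from its name. The labels of the WT cultures with AdipoRon name the tables of DMSO and of AdipoRon cultures, and none name that of WT cultures. The dose of AdipoRon was 10 µM in the sample tags and given in mM in the protocol text. Normalization and filters of the authors are not given in the sources used here. Depth per culture is unknown, and no interval could be given.

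Levels were averaged over the tables listing a gene with pandas 2.3.3. Differences between tables were centred on the median over 19399 genes, and the arithmetic was tested on simulated data. Counts used a difference of 0.1 log2 units. Lengths and copies came from GENCODE M39 (the CCDS transcript of the best APPRIS class, else the canonical one), with windows of 50 bases at steps of 5 (25 for genes outside the lists). The members and lists were chosen with earlier results of these data known. The comparisons of treatment and genotype with the other factor pooled, the threshold of 0.1, the search for copies and the motifs were chosen after levels had been seen. Named genes were the 5 highest and 3 lowest of each subunit in log2 CPM, the 5 largest positive and negative differences for each exchange of 1 group, stalk genes, paralogs with their parent genes, the 4 genes outside the rule, and the 2 highest and lowest of each other list. Alternatives were other memberships, each table alone, a minimum of 1 log2 CPM, levels per length, other centring and the other pair of tables. Values of a few single genes are not reported here.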

Additional observations from a re-analysis of the deposited data

How the results depend on the processing

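Values were compared with the range of the same value over the 4 tables. Differences were compared with 0.015, the robust SD over all genes of the gap between the 2 pairs of tables that give the same difference. Neither is an error between cultures. No value reversed its direction under the planned and added alternatives, though 1 difference did in 2 other subsets given below. The median level moved past that range only per kilobase of coding sequence, to 5.98. The large minus small difference of -0.14 was -0.062 with the 4 genes outside the rule, -0.23 in Tau and -0.22 in AdipoRon cultures, -0.43 for means, and -0.74 and -0.63 per kilobase of coding sequence and of transcript. The SD of 1.90 was 1.63 without paralogs, 1.55 with a minimum of 1 log2 CPM, 2.09 per kilobase of transcript, and 1.73 as a robust SD.

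For WT AdipoRon in place of Tau DMSO (0.26), the value was 0.28 without centring, 0.22 in the small subunit, 0.11 and 0.36 in members above and under the median level, and 0.084 in members with under 75% of windows elsewhere. For Tau AdipoRon in place of WT DMSO (-0.06), it was -0.035 by the other pair of tables, -0.027 and -0.10 above and under the median level, and -0.018 with under 75% of windows elsewhere. Its sign was not kept in 2 subsets used above. It was 0.006 in the 11 members over 7 log2 CPM and 0.016 in the 7 with under 25% of windows elsewhere. AdipoRon minus DMSO (0.20) was 0.22 without centring, 0.23 without paralogs, 0.11 and 0.31 above and under the median level, and 0.10 with under 75% of windows elsewhere. WT minus Tau (0.30) was 0.33 without paralogs, 0.35 and 0.20 in the large and small subunit, 0.15 and 0.45 by level, and 0.11 with under 75% of windows elsewhere. The subsets differ by construction in which genes they hold, and otherwise the cause was not tested. The last subset, lengths per transcript and both pooled comparisons were chosen after seeing the data.

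No paired analysis was possible because the tables used here hold no values per culture, and no culture was left out for the same reason.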

Other observations

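Genes named as ribosomal protein pseudogenes, which the symbol rule leaves out, had median differences near those of the members and a lower median level. The 20 such symbols listed had a median level of 2.95 log2 CPM, and the 18 in all tables had medians of 0.24 for AdipoRon minus DMSO and 0.36 for WT minus Tau. In these, 14 of 18 lay above 0.1 in each, where 31.0% and 22.4% of all genes did. Several symbols name copies of the same gene, as for Rps12 and Rps15a, so the 18 symbols stand for fewer genes. Rps12-ps10 was at 0.68 log2 CPM in DMSO, 0.44 in Tau, 1.34 in WT and 1.22 in AdipoRon cultures. Its differences for treatment and genotype were 0.52 and 0.89, against 0.06 and 0.15 for Rps12 itself. Some of these symbols carried levels above those of the genes they are named after. Rps6-ps4 was at 7.42, 7.45, 7.39 and 7.43 log2 CPM in the same tables, when Rps6 had a mean of 4.93, and Rpl37rt, named as a retrocopy of Rpl37, had a mean of 6.84 when Rpl37 had 3.67. These symbols were chosen after their values were seen. How the authors' counting divided reads between such copies and the genes was not tested.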
